A study of Canis lupus familiaris with 12 samples.

Results

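The claudin family was examined in MDCKII cells that lacked cingulin (CGN), paracingulin (CGNL1) or both. The genes were 8 claudins chosen by name, CLDN1, CLDN2, CLDN3, CLDN4, CLDN7, CLDN8, CLDN12 and CLDN16. Of these, 6 were among the 13672 genes listed, and all 6 passed the limit on low values (more than 1 CPM in at least 3 libraries) that left 12650 genes for testing. CLDN8 and CLDN12 were found neither by symbol nor by a RefSeq synonym or gene ID, and are not analysed here.

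MDCKII is an established line of dog kidney epithelial cells, used as a model of a leaky epithelium. Bulk RNASeq libraries were measured, 3 for each of 4 genotypes: wild-type (WT), cells with CGN knocked out (CGN-KO), cells with CGNL1 knocked out (CGNL1-KO) and cells with both knocked out (double-KO). The knockouts were made with CRISPR/Cas9, each knockout genotype is represented by 1 clone, and the labels give no treatment for any library. A difference between a genotype and WT therefore cannot be told apart from a difference between 1 clone and the parental cells. The labels do not say whether the libraries of a genotype came from separate cultures, so the p-values measure the spread between these libraries, which may be technical. One double-KO library carried no replicate number and is called the unnumbered library.

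Claudins are membrane proteins with 4 transmembrane segments, and their strands close the gap between neighbouring epithelial cells at the tight junction. Barrier-forming claudins tighten the paracellular route, whereas pore-forming claudins open it to selected ions. CLDN2 forms a pore for small cations and water and is a hallmark of leaky epithelia, including the proximal tubule and the MDCKII line. CLDN16 works in the thick ascending limb of the kidney, where together with CLDN19 it sets the reabsorption of magnesium and calcium. CLDN1, CLDN3, CLDN4 and CLDN7 were counted as barrier-forming, although the roles of CLDN4 and CLDN7 depend on the epithelium in which they are studied. Cingulin and paracingulin lie on the cytoplasmic side of the junction, where they bind ZO proteins.

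Between 16837532 and 30086076 reads fell on genes per library. CGN mRNA was lower in every library of both genotypes labelled as lacking it, at 50.6 ± 5.17 CPM (reads scaled to a library of 1000000, mean ± SD, n = 3) in CGN-KO cells and 42.2 ± 2.87 CPM in double-KO cells, against 214 ± 17.2 CPM in WT cells. CGNL1 mRNA was 9.74 ± 2.30 CPM in WT cells, 2.34 ± 0.634 CPM in CGNL1-KO cells and 1.49 ± 0.335 CPM in double-KO cells, and it was also lower in CGN-KO cells, at 5.99 ± 0.944 CPM (limma adjusted p = 0.0201). All 8 epithelial markers looked for, among them CDH1, EPCAM, KRT8 and KRT18, passed the limit on low values, with a summed level between 7023 and 7807 CPM, and 5 of 6 kidney epithelial markers did so. Of 7 collecting duct markers, 6 were listed and 5 passed the limit, with a summed level between 35.6 and 46.6 CPM, and AQP2 was not listed. Of 5 proximal tubule markers 1, CUBN, was listed, and of 5 thick ascending limb markers 1, CLDN16 itself, with UMOD and SLC12A1 not listed. Of 7 fibroblast markers 1, PDGFRA, was listed, at up to 5.48 CPM in WT libraries and up to 11.1 CPM in the others. Leukocyte and endothelial markers summed to at most 2.27 and 2.98 CPM, and PTPRC, PECAM1 and CDH5 were not listed.

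CPM values are not corrected for transcript length, so a level is compared below across libraries of 1 gene and never between claudins. Differences were tested with limma on log2(CPM + 1), a scale that understates changes of low genes, and p-values were adjusted over all 12650 genes tested. The 3 comparisons with WT used the same 3 WT libraries and are not independent of one another.

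CLDN3 and CLDN4 were the barrier-forming claudins that fell in knockout cells, and CLDN1 and CLDN7 did not pass the test in any comparison. Among the pore-forming claudins, CLDN2 rose in CGN-KO cells and CLDN16 fell in both single knockouts. A test of any difference among the 4 genotypes was passed by 4 of 6 claudins, CLDN2, CLDN3, CLDN4 and CLDN16, where 29.9% of all genes passed it. The adjusted p of this moderated F test was 0.0199 for CLDN2, 0.00382 for CLDN3, 0.000119 for CLDN4 and 0.00693 for CLDN16, against 0.363 for CLDN1 and 0.232 for CLDN7.

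**Figure D1:**
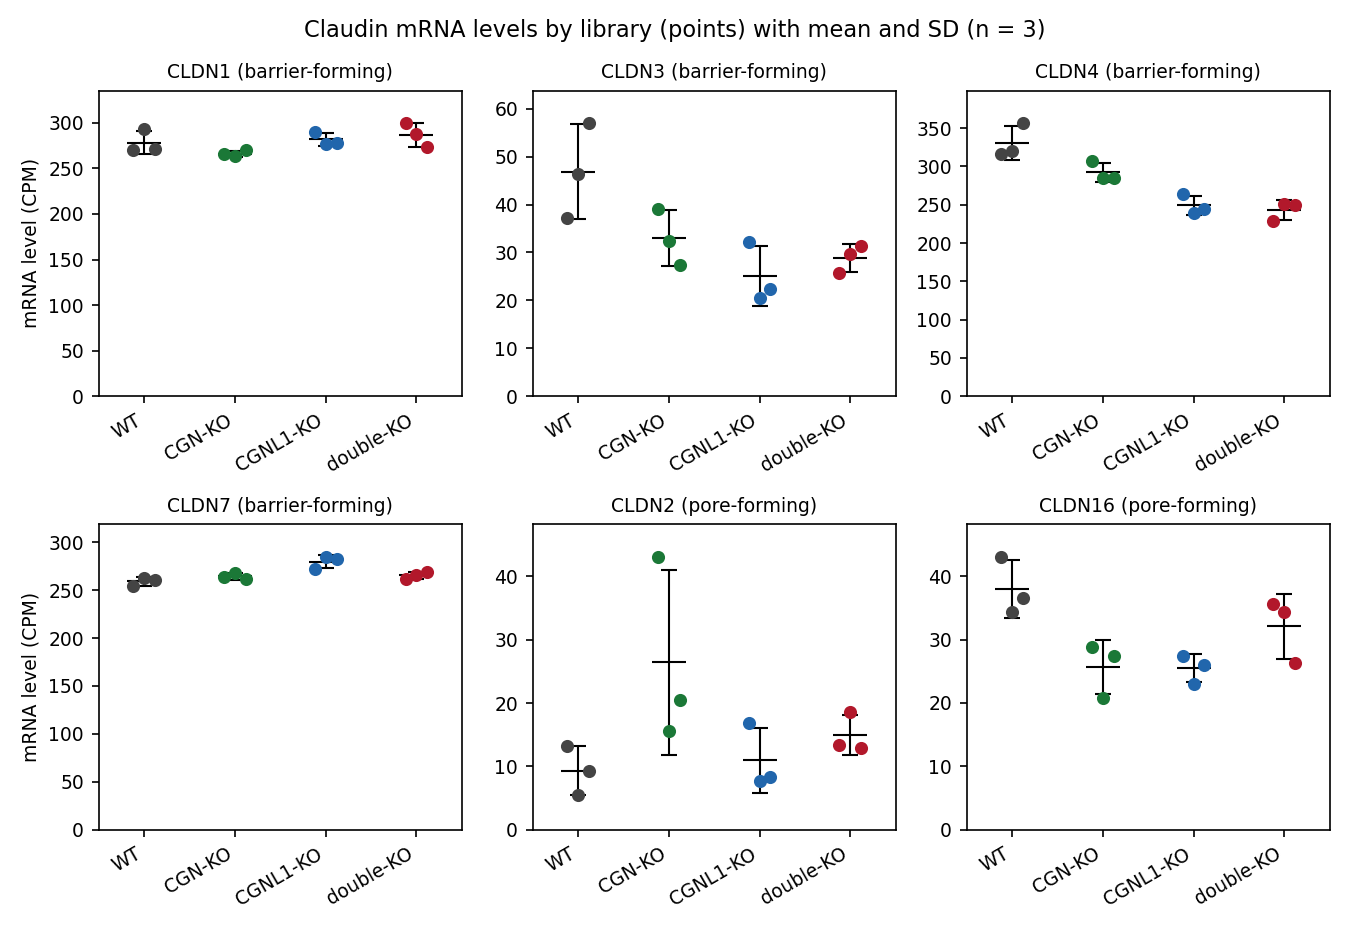
Level of each claudin mRNA in CPM (vertical axis, starting at 0) in the 3 libraries of each genotype (points), with the mean and SD as lines. CLDN3 and CLDN4 are lower in CGNL1-KO and double-KO libraries than in all WT libraries, CLDN1 and CLDN7 stay close to their WT level, and CLDN2 spreads from 15.6 to 43.1 CPM in CGN-KO libraries.

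CLDN3 tightens the barrier to ions of either charge in kidney cells. Its mRNA measured 37.1, 46.4 and 57.0 CPM in the WT libraries and 39.1, 32.3 and 27.4 CPM in the CGN-KO libraries. The CGNL1-KO libraries held 32.3, 20.5 and 22.4 CPM and the double-KO libraries 25.6, 29.6 and 31.3 CPM. Every CGNL1-KO and double-KO library lay below every WT library, whereas 1 CGN-KO library lay above the lowest WT library. CLDN3 fell by 0.88 on the log2 scale in CGNL1-KO cells (SE 0.16, adjusted p = 0.00207) and by 0.66 in double-KO cells (SE 0.16, adjusted p = 0.00683), so that the mean level was 53.5% and 61.6% of that in WT cells. In CGN-KO cells the difference was -0.49 (SE 0.16, adjusted p = 0.0486), just inside the threshold. That call depended on the settings, with an adjusted p of 0.0592 when libraries were scaled to their totals and of 0.0983 with DESeq2, and it passed in 4 of 12 fits that each left out 1 library. The spread between WT libraries was wide for this gene, with a coefficient of variation of 21.2%, against 3.98% from counting error at the fewest reads of a WT library. The order of the mean levels was WT, CGN-KO, double-KO and CGNL1-KO, and no pair of knockout lines differed past the test.

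CLDN4 is a claudin of the distal nephron and collecting duct that lowers sodium passage in MDCK cells. The WT libraries held 316, 319.8 and 356 CPM of CLDN4 mRNA, and the CGN-KO libraries 306, 285 and 285 CPM. The level was 264, 239.9 and 244 CPM in the CGNL1-KO libraries and 229, 252 and 249.8 CPM in the double-KO libraries. The WT, CGN-KO and CGNL1-KO libraries formed 3 ranges with no overlap, and the double-KO range overlapped that of CGNL1-KO. CLDN4 fell by 0.41 in CGNL1-KO cells (SE 0.06, adjusted p = 0.000334), to 75.3% of the WT mean, and by 0.44 in double-KO cells (SE 0.06, adjusted p = 6.53e-05), to 73.6%. In CGN-KO cells the mean was 88.3% of WT and the difference of -0.18 (95% interval -0.31 to -0.05) missed the threshold, with an adjusted p of 0.0540 (0.0363 with DESeq2). In the main limma fit, which has no replicate block, CLDN4 was the only one of the 6 with a difference past the test between knockout lines. CLDN2 passed between CGN-KO and CGNL1-KO cells under 3 of 7 other settings, among them limma with the block (adjusted p = 8.84e-06). CLDN4 was higher in CGN-KO than in CGNL1-KO cells by 0.23 (SE 0.06, adjusted p = 0.0389). It was lower in double-KO than in CGN-KO cells by 0.26 (log2 difference -0.26, SE 0.06, adjusted p = 0.0128). The first of these differences passed in 4 of 12 fits that left out 1 library and had an adjusted p of 0.0942 when only these 2 genotypes were fitted. The second had an adjusted p of 0.0569 without CGN-KO replicate 1 and of 0.0857 without the unnumbered double-KO library. The double-KO and CGNL1-KO lines, adjacent in the order of levels, differed by -0.03 (95% interval -0.16 to 0.10).

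CLDN1 is needed for the water barrier of the skin and is a common barrier claudin in cultured epithelia. Its mRNA was 270.0, 293 and 271 CPM in WT libraries, 266, 263 and 269.6 CPM in CGN-KO libraries, 290.2, 277 and 278 CPM in CGNL1-KO libraries and 299, 288 and 273 CPM in double-KO libraries. All 3 CGN-KO libraries were below the lowest WT library, by a margin smaller than 1 CPM for the nearest of them, and the other knockouts overlapped WT. The log2 difference from WT was -0.06 (95% interval -0.17 to 0.05) in CGN-KO cells, 0.02 (-0.09 to 0.13) in CGNL1-KO cells and 0.04 (-0.06 to 0.15) in double-KO cells, with adjusted p-values from 0.439 to 0.877.

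CLDN7 is found along the basolateral membrane as well as at junctions and binds the adhesion molecule EPCAM. Its mRNA measured 254, 263 and 260 CPM in WT libraries, 263, 268 and 261 CPM in CGN-KO libraries, 272, 285 and 283 CPM in CGNL1-KO libraries and 261, 265 and 269 CPM in double-KO libraries. The CGNL1-KO libraries were the highest and did not overlap WT, but the difference of 0.11 (95% interval 0.02 to 0.20) had an adjusted p of 0.147. The differences in CGN-KO and double-KO cells were 0.03 in each, with intervals from -0.07 to 0.12 and from -0.06 to 0.13. The replicate spread of CLDN7 was close to counting error, with a coefficient of variation of 1.69% between WT libraries, against 1.52% from counting alone.

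CLDN2 showed the largest change of any member and also the largest spread. The WT libraries held 13.3, 5.52 and 9.22 CPM and the CGN-KO libraries 43.1, 15.6 and 20.5 CPM. The CGNL1-KO libraries held 16.8, 7.63 and 8.35 CPM and the double-KO libraries 13.3, 18.7 and 12.9 CPM. All CGN-KO libraries exceeded all WT libraries, whereas the ranges of CGNL1-KO and double-KO cells overlapped that of WT cells. CLDN2 rose by 1.35 on the log2 scale in CGN-KO cells (SE 0.33, adjusted p = 0.00897), from a mean of 9.33 ± 3.87 CPM to 26.4 ± 14.7 CPM, or 2.83-fold. No other member passed both the adjusted p and a 2-fold change in this comparison, where 1.31% of all genes did. In the other comparisons no member did so in the main limma fit. Between CGN-KO and CGNL1-KO cells, CLDN2 did so with edgeR (log2 difference 1.32, adjusted p = 0.0401). It also did so there with limma on library totals (1.19, adjusted p = 0.0482). DESeq2 did not call CLDN2 there. CLDN2 passed the adjusted p there under 3 of 7 other settings and in 4 of 12 fits that left out 1 library. The blocked and leave-one-out fits are given at the end. The share of all genes past both limits was 0.617% for CGNL1-KO and 1.41% for double-KO cells against WT, 0.648% for CGN-KO against CGNL1-KO cells, and 0.356% and 0.696% for double-KO against CGN-KO and CGNL1-KO cells. The log2 difference from WT was 0.20 (95% interval -0.51 to 0.90, adjusted p = 0.788) in CGNL1-KO cells and 0.68 (-0.02 to 1.39, adjusted p = 0.146) in double-KO cells. The double-KO difference passed under 2 of 7 other settings, among them limma on only WT and double-KO libraries (adjusted p = 0.00797). With edgeR its adjusted p was 0.2071, and it passed in 0 of 12 fits that left out 1 library.

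The size of the CLDN2 change rested partly on single libraries. Within WT, CGN-KO and CGNL1-KO cells the highest CLDN2 value was in replicate 1, and replicate 1 of CGN-KO cells was also the library with the most reads (30086076). Without that library the difference was 0.94, below 2-fold, and still past the adjusted p. Without WT replicate 2, the library with the lowest CLDN2 and 100 CLDN2 reads, it was 1.05 with an adjusted p of 0.0579. The coefficient of variation between WT libraries was 41.5%, against 10% from counting those 100 reads. PDGFRA, the 1 fibroblast marker listed, reached 5.88 to 11.1 CPM in the CGN-KO libraries, above the WT range. The PDGFRA values are given by genotype only, so its highest value is not placed in a library here. PDGFRA also reached 9.81 CPM in CGNL1-KO and 6.996 CPM in double-KO libraries, against at most 5.48 CPM in WT libraries. Those ranges overlapped that of WT, and CLDN2 did not pass against WT in either genotype in the main limma fit. The other 6 fibroblast markers, COL1A1, COL1A2, COL3A1, PDGFRB, LUM and DCN, were not listed, and the part of other cells in the CLDN2 result was not tested. In bulk libraries, a change in the number of cells that express a gene and a change in RNA per cell cannot be told apart.

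CLDN2 levels in CGN-KO and CGNL1-KO cells differed by 1.15 (SE 0.33), which missed the threshold with an adjusted p of 0.0579. Libraries with the same number in these 2 lines deviated together across genes, and a fit blocked on that number gave the same difference an adjusted p of 8.84e-06. That fit held all 4 genotypes, so this p-value also rests on WT and double-KO libraries, whose numbers were not taken as paired. The blocked fit left out the unnumbered double-KO library, to which no number could be given. The 2 ranges overlapped, since replicate 1 of CGNL1-KO cells (16.8 CPM) exceeded replicate 2 of CGN-KO cells (15.6 CPM). The double-KO level lay between, 0.67 below CGN-KO cells on the log2 scale (log2 difference -0.67, adjusted p = 0.253) and 0.48 above CGNL1-KO cells (adjusted p = 0.385).

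CLDN16 mRNA was 43.1, 34.4 and 36.5 CPM in the WT libraries, 28.9, 20.8 and 27.4 CPM in the CGN-KO libraries and 27.5, 23.1 and 26.1 CPM in the CGNL1-KO libraries. The double-KO libraries held 35.7, 34.3 and 26.3 CPM. Both single knockouts lay wholly below WT, and the double-KO libraries overlapped every other genotype. CLDN16 fell by 0.55 in CGN-KO cells (SE 0.13, adjusted p = 0.0058) and by 0.55 in CGNL1-KO cells (SE 0.13, adjusted p = 0.00958), to 67.7% and 67.2% of the WT mean. In CGNL1-KO cells the adjusted p was 0.0502 without WT replicate 1, the library with the highest CLDN16 level. In double-KO cells the difference was -0.24 (95% interval -0.51 to 0.03, adjusted p = 0.176), at 84.4% of WT. The single knockouts differed from each other by an interval from -0.27 to 0.27, and double-KO cells exceeded each of them by 0.31, with adjusted p-values of 0.157 against CGN-KO and 0.122 against CGNL1-KO cells. CLDN19, the partner of CLDN16 in the thick ascending limb, was not listed.

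**Figure D2:**
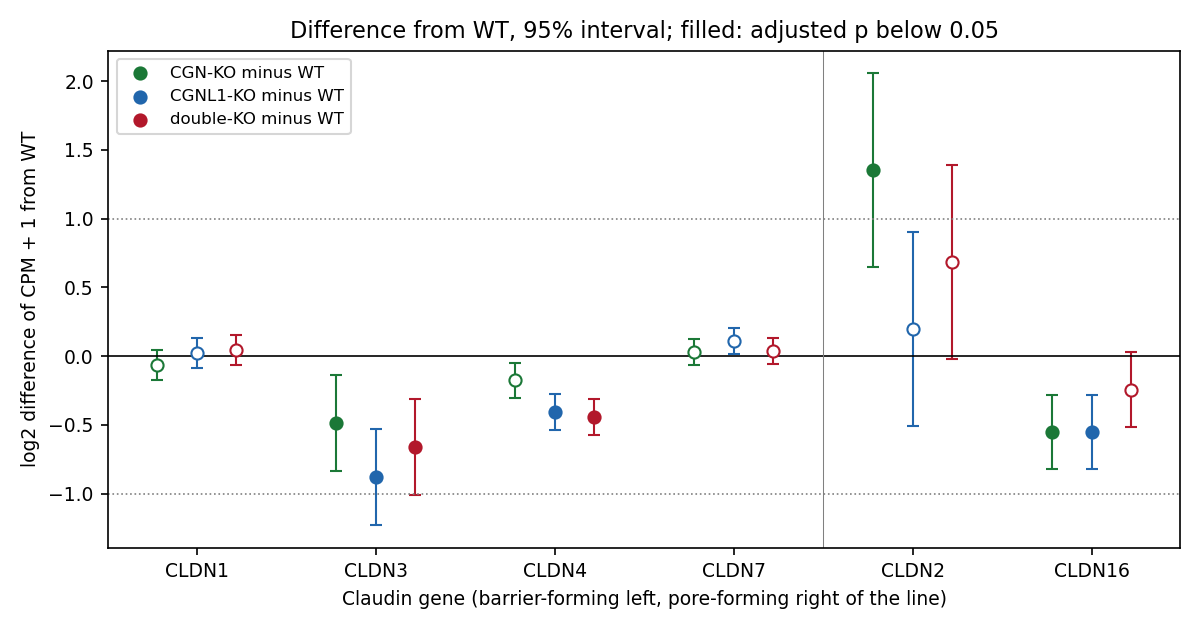
Log2 difference of CPM + 1 from WT (vertical axis) for the 6 claudins in each knockout genotype, with 95% intervals from the limma fit and dotted lines at a 2-fold change. CLDN2 in CGN-KO cells, at 1.35, is the only point outside the dotted lines, and the CLDN3 points at -0.49, -0.88 and -0.66 are all filled.

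Counted over the members, 3 of 6 claudins passed the adjusted p in CGN-KO cells (1 rose and 2 fell), where 19% of all genes passed, 11.2% higher and 7.87% lower. In CGNL1-KO cells 3 of 6 passed and all of them fell, with 10.3% of all genes passing in either direction and 3.49% lower. In double-KO cells 2 of 6 passed and both fell, with 26.3% of all genes passing and 11.5% lower. Between knockout lines the count was 1 of 6 for CGN-KO against CGNL1-KO (5.19% of all genes), 1 of 6 for double-KO against CGN-KO (8.84%) and 0 of 6 for double-KO against CGNL1-KO (14.4%). For this count of 0 by limma, CLDN16 had an unadjusted p of 0.0271, and edgeR and DESeq2 also called none.

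Of the 4 barrier-forming members, limma called 1 in CGN-KO cells (CLDN3) and 2 in each of CGNL1-KO and double-KO cells (CLDN3 and CLDN4), and all of these calls were decreases. Against WT at an unadjusted p below 0.05, 1 barrier claudin was higher, CLDN7 in CGNL1-KO cells. The share of all genes at that limit is not given, so this count has no background. Neither edgeR nor DESeq2 called a barrier claudin higher than in WT. The pore-forming pair did not share a direction. In CGN-KO cells CLDN2 rose and CLDN16 fell, in CGNL1-KO cells CLDN16 alone passed, and in double-KO cells neither passed. The median log2 difference of the 6 members was -0.12 for CGN-KO, -0.19 for CGNL1-KO and -0.10 for double-KO cells, beside medians over all genes tested of -0.00389, -0.00312 and -0.000356. The groups did not overlap for 4 of 6 members in CGN-KO cells, 4 in CGNL1-KO cells and 2 in double-KO cells, where 35.9%, 24.4% and 45% of all genes had no overlap.

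Ratios between claudins within a library do not depend on how the libraries were scaled, and transcript length cancels when a ratio is set against its WT mean. These ratios are a description, chosen after the values were seen. The ratio of CLDN2 to CLDN16 was 1.28, 0.668 and 1.05 times the WT mean in the WT libraries, and 6.21, 3.12 and 3.12 times in the CGN-KO libraries. It was 2.55, 1.38 and 1.33 times in the CGNL1-KO libraries and 1.55, 2.26 and 2.05 times in the double-KO libraries. All 9 knockout libraries had a higher CLDN2 to CLDN16 ratio than any WT library.

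The ratio of CLDN2 to CLDN4, a pore against a barrier claudin, averaged 3.14 times the WT mean in CGN-KO, 1.53 times in CGNL1-KO and 2.17 times in double-KO cells. Only 1 of 3 CGNL1-KO libraries exceeded all WT libraries, at 2.25 times, whereas all CGN-KO libraries (1.93 to 4.96) and all double-KO libraries (1.83 to 2.62) did. Within the barrier group, the ratio of CLDN4 to CLDN7 averaged 0.866, 0.698 and 0.718 times the WT mean in CGN-KO, CGNL1-KO and double-KO cells. Its libraries ranged from 0.952 to 1.07 in WT, from 0.832 to 0.912 in CGN-KO, from 0.660 to 0.759 in CGNL1-KO and from 0.686 to 0.743 in double-KO cells, so each knockout was apart from WT and the last 2 overlapped.

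**Figure D3:**
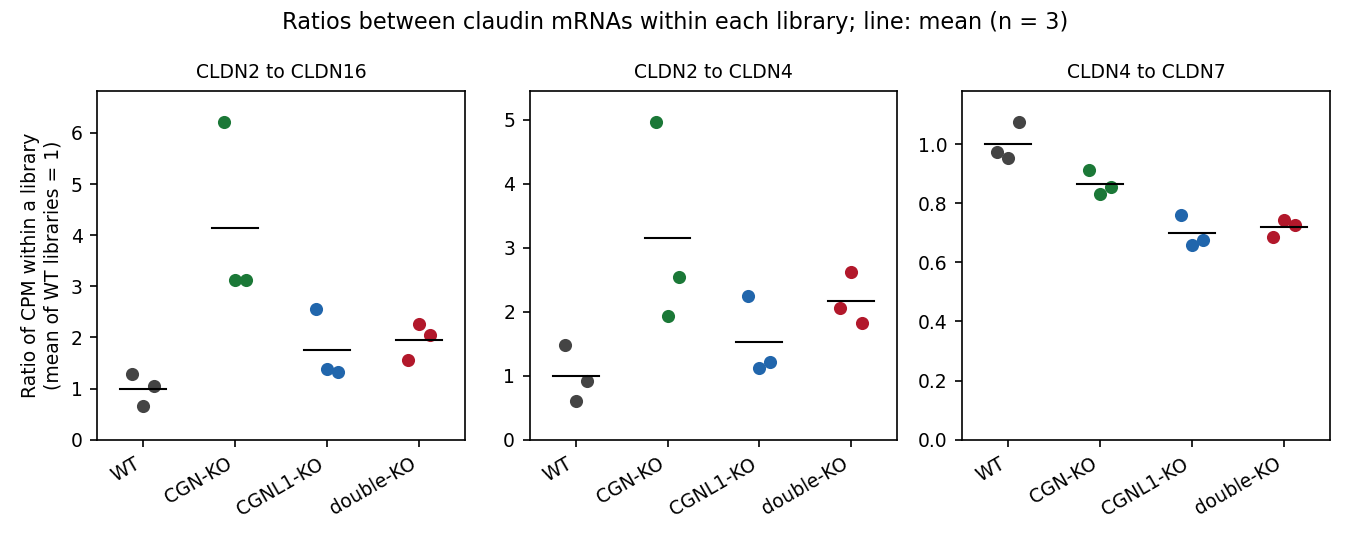
Ratio of CPM between pairs of claudins within each library (points), relative to the mean of the 3 WT libraries (1 on the vertical axis), with the mean of each genotype as a line. The CLDN2 to CLDN16 ratio is above the WT libraries in all 9 knockout libraries, and the CLDN4 to CLDN7 ratio is below them.

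Beyond the chosen members, 5 further genes named CLDN and a number were listed, CLDN6, CLDN9, CLDN15, CLDN23 and CLDN34. CLDN9 and CLDN23 stayed below the limit on low values, with 1 to 24 reads in a library. CLDN6, CLDN15 and CLDN34, and the distantly related CLDND1, were tested, and 0 of these 4 passed the adjusted p against WT in any knockout by limma, edgeR or DESeq2. At an unadjusted p below 0.05 in limma, the count was 1, CLDN6 in CGN-KO cells, with no share of all genes at that limit given. CLDN6, known mainly from embryonic epithelia and named here after its values were seen, averaged 3.40 ± 0.972 CPM in WT, 4.70 ± 0.273 CPM in CGN-KO, 2.54 ± 0.0951 CPM in CGNL1-KO and 3.78 ± 0.429 CPM in double-KO cells. It was higher in CGN-KO than in CGNL1-KO cells by 0.69 (SE 0.14, adjusted p = 0.00708).

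The measured genes beside each claudin were examined next, in the order of the RefSeq table for the dog assembly UU_Cfam_GSD_1.0, which differs from the build to which the reads were aligned (CanFam3.1). CLDN4 and CLDN3 are neighbours in that order, with METTL27 before CLDN4 and ABHD11 after CLDN3. Both of these flanking genes fell in all knockout lines. METTL27, a putative methyltransferase, measured 9.84, 10.3 and 10.8 CPM in WT libraries, 4.07 to 6.66 CPM in CGN-KO, 5.14 to 5.22 CPM in CGNL1-KO and 6.05 to 6.30 CPM in double-KO libraries. Its log2 differences were -0.84, -0.87 and -0.65, with adjusted p-values of 0.000140, 0.000173 and 0.000889. ABHD11, a mitochondrial hydrolase, differed by -0.35, -0.48 and -0.33, with adjusted p-values of 0.0147, 0.00295 and 0.0149. LIMK1, the next gene before METTL27 and a kinase of the actin regulator cofilin, did not pass (0.09, 0.11 and 0.10).

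CLDN1 and CLDN16 are also neighbours, with unlike values in the single knockouts (-0.06 and -0.55 in CGN-KO cells). P3H2, a collagen-modifying enzyme on the other side of CLDN1, rose by 0.63, 0.56 and 1.08 in CGN-KO, CGNL1-KO and double-KO cells, with adjusted p-values of 0.000141, 0.000653 and 4.09e-07. RIPPLY1, a transcriptional corepressor gene next to CLDN2, rose by 1.37, 1.34 and 1.06 (adjusted p = 0.0111, 0.0210 and 0.0333). Like CLDN2, RIPPLY1 was highest in replicate 1 in WT (6.60 CPM), CGN-KO (24.3 CPM) and CGNL1-KO cells (17.1 CPM). MORC4, on the other side of CLDN2, did not pass in any of these comparisons. Beside CLDN7, 3 of 6 neighbours fell in double-KO cells, ELP5, SLC2A4 and YBX2, where 11.5% of all genes fell. In CGNL1-KO cells 1 of them fell, YBX2, where 3.49% of all genes did. The nearest of them, ELP5, differed by -0.20 in double-KO cells (adjusted p = 0.0313). YBX2 fell by 0.63 in CGNL1-KO and by 0.41 in double-KO cells (adjusted p = 0.00846 and 0.0426) and SLC2A4 by 0.60 in double-KO cells (adjusted p = 0.0121). Of the remaining neighbours of the 6 claudins, RBM41 (-0.32), IL1RAP (-0.18) and LOC102151316 (-0.81) fell in double-KO cells and MB21D2 (-0.33) in CGNL1-KO cells, with adjusted p-values of 0.0319, 0.0239, 0.00186 and 0.0306. No gene in that table overlaps a claudin of the 6, and the strand setting of the counting is not given in the sources used here.

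**Figure D4:**
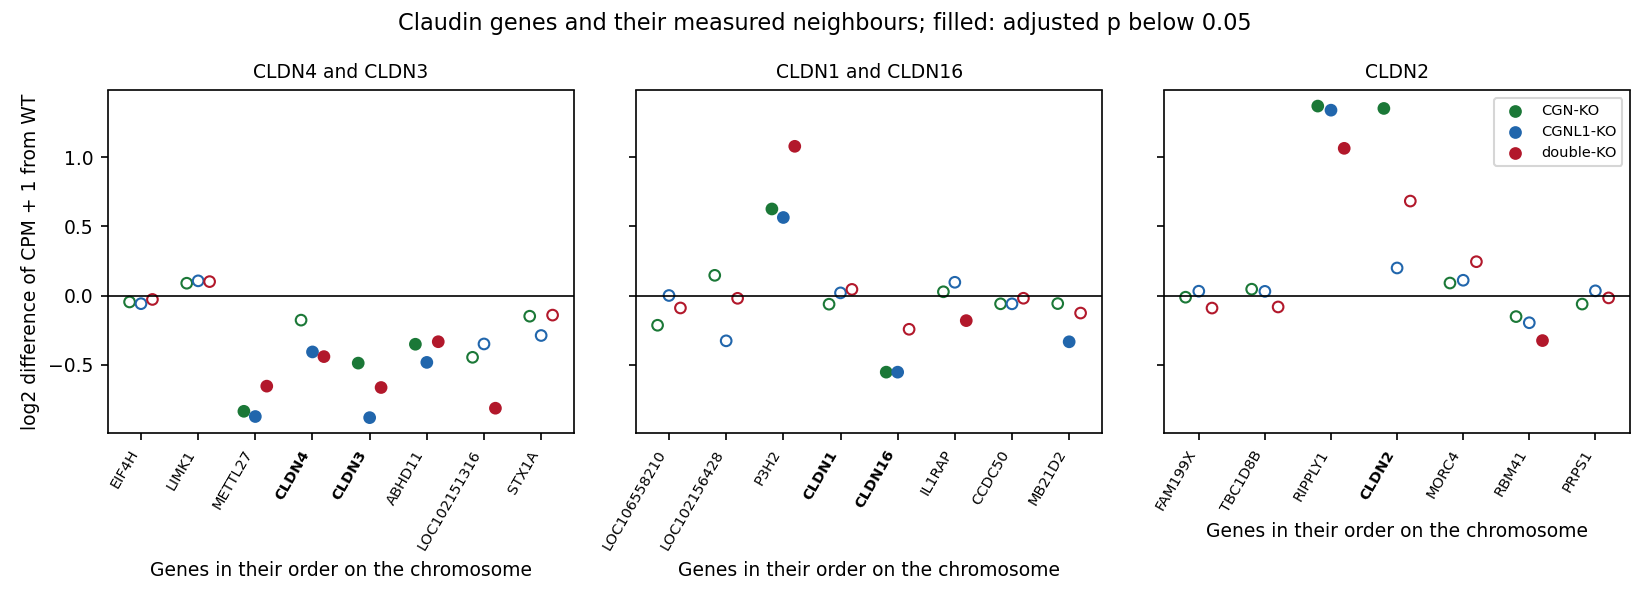
Log2 difference of CPM + 1 from WT (vertical axis) for the claudins (bold) and the measured genes beside them, in their order along the chromosome. METTL27, CLDN3 and ABHD11 have filled points below 0 in all 3 knockouts, and RIPPLY1, beside CLDN2, has filled points above 1.0 in all of them.

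Proteins that join claudins at the tight junction were taken as a list of 35 genes, of which 29 were tested, CGN and CGNL1 among them. Of the other 27, 3 rose and 4 fell in CGN-KO cells, and 2 rose and 3 fell in CGNL1-KO cells. In double-KO cells 2 rose and 7 fell. Over all genes, 19%, 10.3% and 26.3% were called in either direction, and 7.87%, 3.49% and 11.5% lower. The median log2 difference of all 29 was 0.00299, -0.05 and -0.10. JAM3, a junctional adhesion molecule, rose by 0.60 in CGN-KO (adjusted p = 0.000264) and by 0.39 in CGNL1-KO cells (adjusted p = 0.0130), from 4.64 to 5.16 CPM in WT libraries to 7.95 to 8.11 CPM and 6.14 to 7.55 CPM, and by 0.41 in double-KO cells (adjusted p = 0.00405). ILDR1, a protein of tricellular contacts, fell by 0.50 in CGNL1-KO cells (adjusted p = 0.0423) and by 0.42 in double-KO cells (adjusted p = 0.0489). The scaffold MAGI1 fell by 0.37 in CGNL1-KO cells (adjusted p = 0.0221) and by 0.45 in double-KO cells (adjusted p = 0.00304). OCLN, which encodes occludin and was picked after its values were seen, fell by 0.20 in CGN-KO (adjusted p = 0.0101) and by 0.27 in double-KO cells (adjusted p = 0.000850), and its difference in CGNL1-KO cells was -0.16 (adjusted p = 0.0611).

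Genes known to control claudin transcription, stability or phosphorylation made a second list of 34, of which 28 were tested. By limma, 9 rose and 0 fell in CGN-KO cells, 6 rose and 0 fell in CGNL1-KO cells, and 5 rose and 4 fell in double-KO cells. Over all genes, 11.2% rose and 7.87% fell in CGN-KO cells. In CGNL1-KO cells 10.3% of all genes were called in either direction and 3.49% lower. In double-KO cells 26.3% were called in either direction and 11.5% lower. The double-KO count of 9 of 28 in either direction was thus near the share of all genes. Neither edgeR nor DESeq2 called a regulator lower in a single knockout. At an unadjusted p below 0.05, 3 were lower in CGN-KO cells (SP1, EPHA2 and WNK4) and 3 in CGNL1-KO cells (GATA4, GRHL2 and WNK4). The share of all genes at that unadjusted limit is not given, here or for the claudin counts above, so these counts have no background. The median log2 difference over the 28 was 0.07, 0.01 and 0.04. GRHL3, an epithelial transcription factor, measured 14.4, 12.1 and 12.4 CPM in WT libraries and 28.1, 29.3 and 28.5 CPM in CGN-KO libraries, and it rose by 1.09 in CGN-KO (adjusted p = 2.26e-05) and by 0.74 in CGNL1-KO cells (adjusted p = 0.00150). OVOL2, a repressor of mesenchymal genes, rose by 0.63, 0.44 and 0.46 in CGN-KO, CGNL1-KO and double-KO cells (adjusted p = 6.21e-05, 0.00285 and 0.000827), and no knockout library overlapped its WT range of 14.0 to 14.5 CPM.

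HNF4A, a nuclear receptor that drives genes of differentiated kidney, liver and gut epithelium, rose by 0.78 in CGN-KO cells (adjusted p = 0.00622). As for CLDN2, its highest value was in CGN-KO replicate 1, at 37.1 CPM against 21.7 and 20.9 CPM in the other CGN-KO libraries. SNAI1, a repressor of claudin genes, rose by 0.41 in CGN-KO cells (adjusted p = 0.0315) and by 0.46 in CGNL1-KO cells (adjusted p = 0.0284). WNK4, a kinase that acts on claudins in the distal nephron, fell by 1.30 in double-KO cells (adjusted p = 6.12e-05), from 9.99 to 12.6 CPM in WT libraries to at most 4.75 CPM. SPINT2, an inhibitor of the proteases that cleave EPCAM, rose by 0.39, 0.27 and 0.49 in CGN-KO, CGNL1-KO and double-KO cells (adjusted p = 7.27e-05, 0.00383 and 5.42e-06). EPCAM itself, which binds CLDN7 and was picked after its values were seen, rose by 0.40, 0.26 and 0.33 in CGN-KO, CGNL1-KO and double-KO cells (adjusted p = 6.83e-05, 0.00483 and 0.000265), while the CLDN7 differences were 0.03, 0.11 and 0.03.

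**Figure D5:**
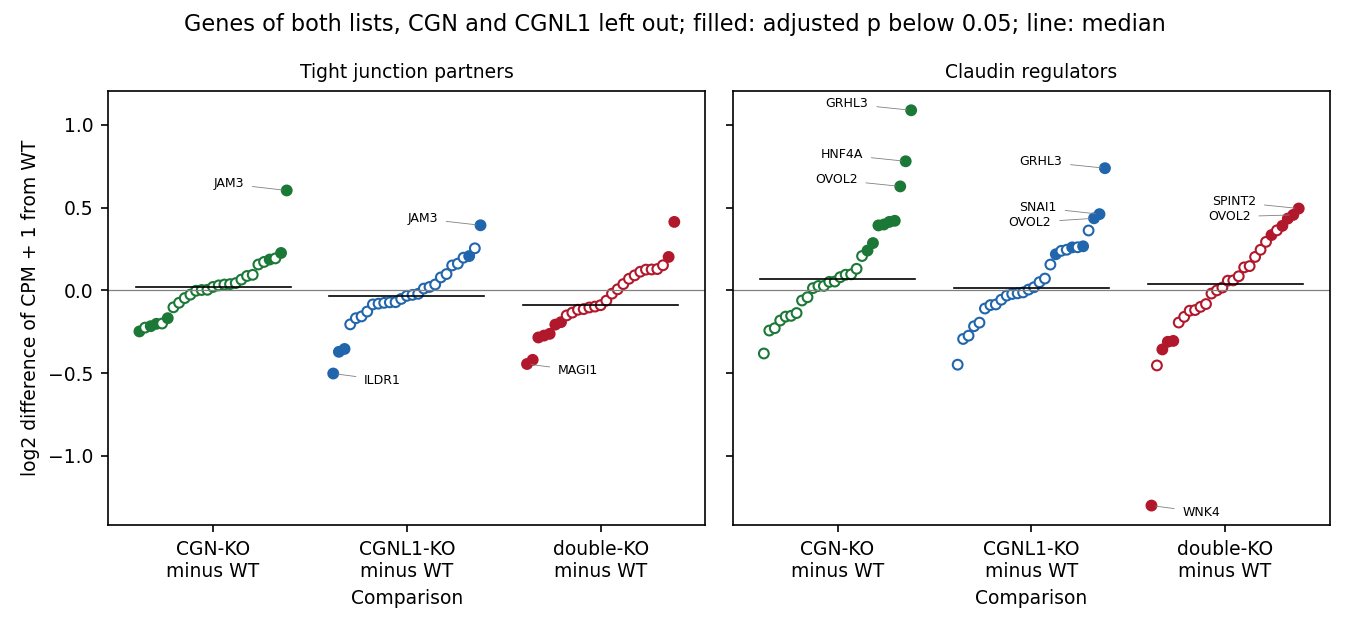
Log2 difference of CPM + 1 from WT (vertical axis) for each tested gene of the tight junction partners (left, 27 genes) and the claudin regulators (right, 28 genes), sorted within a comparison, with the median of the plotted genes as a line. In CGN-KO and CGNL1-KO cells all filled regulators are above 0, and the lowest filled point is WNK4 in double-KO cells, at -1.30.

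The genes whose level most resembled that of each claudin were ranked by Pearson's r of log2(CPM + 1) over the 12 libraries, as a description, since all genes of a library share its depth and replicate. For CLDN2 they were PTOV1 (r = 0.963), CDH16 (r = 0.963), which encodes kidney-specific cadherin, and ADRA2A (r = 0.958), which encodes an adrenergic receptor. For CLDN4 they were ZNF252, RIPOR2 and TTLL7, with r from 0.943 to 0.958, and for CLDN3 TSPAN2, ZNRD1 and FURIN, with r from 0.915 to 0.929. For CLDN16 they were GKAP1, LONRF1 and SP3 (0.919 to 0.922), for CLDN7 TMC5, NCALD and RDH11 (0.887 to 0.928), and for CLDN1 PUDP, ACADM and LRRC36 (0.840 to 0.879). CDH16 averaged 1.45 CPM in WT, 3.43 CPM in CGN-KO, 2.19 CPM in CGNL1-KO cells and 2.48 CPM in double-KO cells. As CDH16 was picked for its likeness to CLDN2 over these libraries, the order it shares with the CLDN2 means is no separate observation.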

How the data were processed

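RNASeq libraries from MDCKII cells were prepared with the Illumina TruSeq kit. Per the labels and the submitters' processing notes, the authors aligned reads with STAR 2.7.0f to CanFam3.1 and counted them per gene with HTSeq 0.9.1, and they normalised the counts in edgeR. The annotation release and strand setting are not given in the sources used here. The deposited values are CPM, a normalised signal per gene, and all 12 columns were used (0 left out). In each column the values were whole multiples of what 1 read is worth (tolerance 0.01), which gave whole reads and library totals.

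Genes above 1 CPM in 3 or more libraries entered limma 3.58.1 (R 4.3.3, lmFit and eBayes with trend), fitted on log2(CPM + 1), with all 4 genotypes in 1 fit and Benjamini-Hochberg adjustment over all genes, at an adjusted p of 0.05. The quoted intervals are 95% intervals of the fit. The scripts were tested on simulated data. The alternatives were a pseudocount of 0.1, no filter, library totals without the authors' factor, edgeR 4.0.16 (quasi-likelihood) and DESeq2 1.42.0 on the recovered reads, fits of only the 2 genotypes compared, a replicate block, and each library left out in turn. Same-numbered libraries of CGN-KO and CGNL1-KO cells deviated together in all 3 pairs (r across genes 0.179 to 0.632) and were taken as paired. Those of WT and CGN-KO cells (-0.0822 to 0.373) or WT and CGNL1-KO cells (0.0110 to 0.371) did not in every pair, and were not. For double-KO cells, r was -0.152 to 0.0859 with WT, -0.233 to -0.123 with CGN-KO and -0.235 to -0.124 with CGNL1-KO cells. Double-KO libraries were therefore not taken as paired either.

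The members, lists, ratios and rules were chosen with earlier results of these data known. All claudins were named. In each list, the 3 genes with the largest change past the adjusted p in a comparison with WT were named, and for each claudin the 3 genes with the highest r. The 3 listed genes on either side of a claudin in RefSeq order were examined, and those called were named, with LIMK1 and MORC4 beside them. Sequences and transcript lengths were not used here.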

Additional observations from a re-analysis of the deposited data

Results flagged for a closer look

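In the main limma fit, the effects of 2 knockouts differed in a direct test between the knockout lines for 6 flagged genes. For the claudins themselves this was CLDN4, with a log2 difference of 0.23 between CGN-KO and CGNL1-KO cells and of -0.26 between double-KO and CGN-KO cells. CLDN6 differed by 0.69 between CGN-KO and CGNL1-KO cells, from a mean of 4.70 CPM in the former to 2.54 CPM in the latter.

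Among the junction partners, MAGI1 differed by 0.41 between CGN-KO and CGNL1-KO cells and by -0.48 between double-KO and CGN-KO cells. Among the regulators, GRHL3 was lower in double-KO cells than in CGN-KO cells (-0.79) and in CGNL1-KO cells (-0.45). WNK4 was likewise lower in double-KO cells, at -0.92 against CGN-KO and -0.85 against CGNL1-KO cells, and SPINT2 was higher in double-KO than in CGNL1-KO cells (0.23). Their limma adjusted p-values lay between 0.00154 and 0.0389.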

How the results depend on the processing

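The limits are 3 libraries and 1 clone a genotype, and a CLDN2 level in WT cells that rests on 100 to 225 reads a library. The changes of CLDN3 and CLDN4 in CGNL1-KO and double-KO cells and of CLDN16 in CGN-KO cells passed the adjusted p under all 7 other settings and in all 12 fits that left out 1 library. Testing all genes without the low-value limit changed no call. Where a call changed, the cause was not tested.

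CLDN3 in CGN-KO cells was -0.48 (adjusted p = 0.0592) with libraries scaled to their totals and -0.51 (0.0983) with DESeq2, where CLDN4 was -0.18 (0.0363). Between CGN-KO and CGNL1-KO cells, 2 claudins were called with library totals and with edgeR, 1 of them (CLDN2) past 2-fold, with CLDN2 at 1.19 (adjusted p = 0.0482) and 1.32 (0.0401). With only the compared genotypes fitted the count was 0, CLDN4 was 0.23 (0.0942), and CLDN2 in double-KO cells was 0.68 (0.00797) against WT. The sign turned for differences near 0: CLDN16 between the single knockouts with a pseudocount of 0.1 (-0.000291), and, with library totals, CLDN1 in CGNL1-KO cells (-0.013), CLDN7 between double-KO and CGN-KO cells (-0.0046) and CLDN4 between double-KO and CGNL1-KO cells (0.00049).

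A fit with the replicate number as a block left out the unnumbered double-KO library and kept replicates 2 and 3 of that genotype. Same-numbered libraries were taken as paired only between CGN-KO and CGNL1-KO cells. In all other comparisons the blocked p-values rest on a pairing that was not seen in every pair. With the block, CLDN4 in CGN-KO cells was -0.18 (adjusted p = 0.0200). CLDN2 was 1.09 in double-KO cells against WT (4.31e-05), the 1 claudin past 2-fold there, 1.15 between CGN-KO and CGNL1-KO cells (8.84e-06), where 2 were called and 1 was past 2-fold, and 0.89 between double-KO and CGNL1-KO cells (0.000844), the 1 call there. Between double-KO and CGN-KO cells 0 were called, with CLDN4 at -0.20 (0.0532), and between double-KO and CGNL1-KO cells CLDN1 was -0.0067 and CLDN4 0.025. The block changed no other claudin call.

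With each library left out in turn, the claudins called against WT numbered 1 to 4 (CGN-KO), 2 to 3 (CGNL1-KO) and 2 (double-KO), and those between knockouts 0 to 3 for CGN-KO against CGNL1-KO and 0 to 1 for double-KO against either single knockout. Past 2-fold they numbered 0 to 1 for CGN-KO against WT, CGNL1-KO against WT and CGN-KO against CGNL1-KO cells. Against WT in CGN-KO cells, CLDN2 ranged from 0.94 to 1.65, CLDN3 from -0.64 to -0.34 and CLDN4 from -0.21 to -0.12. In CGNL1-KO cells CLDN1 ranged from -0.0020 to 0.057, CLDN2 from -0.13 to 0.47 and CLDN16 from -0.62 to -0.46. Between CGN-KO and CGNL1-KO cells CLDN2 ranged from 0.74 to 1.48, CLDN3 from 0.27 to 0.58, CLDN4 from 0.19 to 0.27 and CLDN16 from -0.088 to 0.14. Between double-KO and CGN-KO cells CLDN4 ranged from -0.29 to -0.22 and CLDN7 from -0.0048 to 0.017. Between double-KO and CGNL1-KO cells CLDN1 ranged from -0.0063 to 0.060, CLDN4 from -0.060 to 0.010 and CLDN16 from 0.23 to 0.44, past the test without double-KO replicate 3 (adjusted p = 0.0426). CLDN3 between the single knockouts passed without CGNL1-KO replicate 1 (0.0182).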
